A study of Mus musculus with 5 samples.

Results

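The bile acid genes examined were Cyp7a1, Cyp7b1, Cyp8b1, Cyp27a1, Nr0b2, Nr1h4, Slc10a1, Slco1b2, Abcb11 and Baat, taken as every non-control array probe whose RefSeq identifier belongs to one of these symbols. The rule found 11 probes for 9 of the 10 genes, among 41174 probes on the array, of which 24375 had a gene name. Cyp7a1 and Baat had 2 probes each, and Slco1b2 had no probe by this rule. RNA from 5 liver samples (livers 1 to 5) was measured. They came from male C57BL/6N mice that received an ethanol diet for 8 weeks followed by 3 ethanol binges of 5 g/kg. Each liver was labelled with Cy5 on its own 2-colour Agilent array, against a common Cy3 reference, a purchased assorted mouse total RNA whose tissue is also labelled liver and whose strain is given as C57BL/6N. All 5 samples form 1 group, dyes were not exchanged, and the mice on other diets of the parallel experiment were not analysed here. Every ratio below is therefore liver over the purchased reference, and none measures an effect of ethanol. A dye bias of a probe and a true difference from the reference cannot be told apart in this design. The labels do not state that each sample was a separate animal, so each p-value reflects the scatter among these samples alone, which may be technical.

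Bile acids are made from cholesterol in hepatocytes. In the classical route Cyp7a1 adds the first hydroxyl group and sets the rate, and Cyp8b1 adds the hydroxyl group that distinguishes cholic acid. In the alternative route the mitochondrial Cyp27a1 oxidises the side chain and Cyp7b1 hydroxylates the oxysterols. Baat joins bile acids to taurine or glycine, Abcb11 (the bile salt export pump) secretes them into bile, and Slc10a1 (NTCP) and Slco1b2 take them back up from blood. The receptor FXR, encoded by Nr1h4, is activated by bile acids and induces Nr0b2 and Abcb11. Nr0b2 encodes SHP, a repressor of Cyp7a1 and Cyp8b1.

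Of the 10 genes, 7 had a promoter entry in RefSeq (build GRCm38.p6). The sequences of 3 are shown because they stand for different parts of the pathway: a synthesis enzyme, the repressor SHP and the exporter. Each holds the 250 bases before the gene start, 5′ to 3′ in the direction of the gene. Capitals mark the motifs searched, which were CAAAGTCCA (of the type bound by HNF4A), AGGTCA (the unit of many nuclear receptor sites), TCAAGG (of the type bound by Nr5a2, also called LRH-1) and the inverted repeat AGGTCANTGACCT, each on both strands. The motifs were chosen after the sequences were read.
Cyp8b1, chr9:121916306-121916555, minus strand: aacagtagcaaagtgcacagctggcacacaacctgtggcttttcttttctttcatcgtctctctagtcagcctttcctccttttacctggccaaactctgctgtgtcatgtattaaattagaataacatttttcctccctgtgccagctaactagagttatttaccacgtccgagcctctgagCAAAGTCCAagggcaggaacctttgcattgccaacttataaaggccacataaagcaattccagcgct
Nr0b2, chr4:133553126-133553375, plus strand: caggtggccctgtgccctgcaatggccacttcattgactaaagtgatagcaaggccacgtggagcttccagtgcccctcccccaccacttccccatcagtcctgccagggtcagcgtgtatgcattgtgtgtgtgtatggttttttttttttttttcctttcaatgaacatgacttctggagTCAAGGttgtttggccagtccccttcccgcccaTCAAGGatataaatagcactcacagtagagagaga
Abcb11, chr2:69342617-69342866, minus strand: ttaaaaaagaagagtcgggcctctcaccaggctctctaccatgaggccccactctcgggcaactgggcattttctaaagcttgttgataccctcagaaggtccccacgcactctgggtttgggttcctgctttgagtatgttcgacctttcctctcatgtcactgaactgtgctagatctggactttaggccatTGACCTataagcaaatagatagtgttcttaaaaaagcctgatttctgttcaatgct
CAAAGTCCA occurred in the Cyp8b1 promoter, 67 to 59 bases before the start, and in 0.384% of 32851 promoters searched over the same length. TCAAGG occurred in the Nr0b2 promoter at 68 to 63 and at 35 to 30 bases before the start, and in 12.5% of all promoters. AGGTCA occurred in the Abcb11 promoter on the opposite strand, read as TGACCT, 56 to 51 bases before the start, and in 14% of all promoters. The inverted repeat occurred in 0.00609% of promoters and in none of the printed ones. These matches describe letters in the windows and were not linked to any measurement here.

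The arrays held 45018 spots each. The liver channel was well above background for 77.2% to 81.1% of non-control probes and the reference channel for 69.5% to 78.1%, and no spot was saturated. The number of arrays limits the precision. Between 2.53% and 4.18% of spots per array were marked by the scanner software as non-uniform or as outliers and were left out. Among the bile acid probes, 8 of 55 spots were marked, all as non-uniform in the liver channel. A probe was tested with limma when 3 or more arrays showed it well above background in one channel or the other and it had at least 3 values, and its p was adjusted by Benjamini-Hochberg over all 31889 tested probes. A probe was called at an adjusted p below 0.05 and at least a 2-fold mean ratio. Signals are given as the background-subtracted spot signal of the scanner software, in scanner units, with marked spots included.

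By these rules 10 of the 11 bile acid probes were tested, and 1 of them, a Cyp7a1 probe, was called lower in liver than in the reference, against 0.32% of all tested probes. By limma 0 were called higher, against 1.2% of all tested probes. At an unadjusted p below 0.05, 5 of the 10 were lower, 2 of them probes of Cyp7a1, against 19% of all tested probes. In the higher direction it was 1, a Baat probe, against 22.8%. Without the minimum ratio, 2 were lower at an adjusted p below 0.05, both of Cyp7a1, against 11.5% of all tested probes. At this threshold 0 were higher, against 16.2%. Mean log2 ratios were below 0 for 8 and above 0 for 2 of the tested probes, with a median of -0.26, while the median over all tested probes was -0.0033. Lower ratios in a piece of tissue can come from less RNA per cell or from fewer cells of a type, and these arrays cannot tell them apart.

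Cyp7a1 was low in livers 1, 2 and 5 and closer to the reference in livers 3 and 4. With probe A_51_P290981 the log2 ratio was -1.94, -1.59, -0.30 and -1.37 in livers 1, 2, 4 and 5. The spot of liver 3 was marked as non-uniform and left out; kept, it would read 0.28. All 4 measured livers lay below the reference, and liver 4 stood closest to it. In the authors' deposited table liver 4 stands lower, at -0.63 with this probe and -0.65 with the other. The mean was -1.30 ± 0.71 (SD, n = 4), or 2.46-fold lower, with an adjusted p from limma of 0.0121. The liver signals behind these ratios were 88.7, 185, 873, 421 and 128 in livers 1 to 5, including the marked spot, against 498, 681, 591, 679 and 671 for the reference on the same arrays. The liver signal thus spanned 9.84-fold between samples and the reference signal 1.37-fold. These raw signals are not corrected for array brightness. The median raw liver signal of an array was itself lowest in liver 1 (77.4) and highest in liver 3 (176). The marked spot of liver 3 set the top of the 9.84-fold span. The call was lost when marked spots were kept (mean -0.99, adjusted p 0.0406) and when both Cyp7a1 probes were averaged (-0.997, adjusted p 0.0260). Both bring in a value of liver 3, which in the average comes from the other probe (0.07), and both means lie just short of 2-fold. The call was made in 15 of 17 settings, over which the adjusted p ranged between 0.00132 and 0.0465.

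The other Cyp7a1 probe, A_52_P84027, gave the same order of livers. Its log2 ratio was -1.71, -1.55, 0.07, -0.35 and -1.32 in livers 1 to 5. Liver 3, measured here, was at the reference level, and livers 1, 2 and 5 were again the lowest. The mean of -0.97 ± 0.79 (SD, n = 5) was 1.96-fold lower with an adjusted p from limma of 0.0364, and was not called because it fell short of 2-fold. In the 4 livers that both probes measured, their ratios differed by 0.23, 0.04, 0.05 and 0.05 in livers 1, 2, 4 and 5. The probe was dim: its liver signal was -0.24, 18.8, 287, 135 and 33.6, against 137, 160, 192, 233 and 270 for the reference. It was not well above background in livers 1 and 2, where the ratio depends on the background correction. In the authors' deposited table the same probe stands at -5.74 in liver 1 and -3.40 in liver 2. Probe A_51_P290981 stands there at -2.53 and -2.05, so the small differences between probes in these 2 livers depend on the processing. Probe A_52_P84027 was called without liver 3 (mean -1.23, adjusted p 0.00790), without liver 4 (-1.13, adjusted p 0.0487) and with scale normalization between arrays (-1.04, adjusted p 0.0438). Its mean over all settings lay between -2.45 and -0.79.

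As processed here, Cyp8b1 had the lowest mean ratio and the largest spread of the 10 tested bile acid probes. Both Cyp7a1 probes had lower means than Cyp8b1 when ratios came from the processed signals or from the authors' deposited table, and one of them did without liver 1. The log2 ratio of its probe A_51_P266618 was -2.83, -1.94, -0.55 and -0.40 in livers 1 to 4. The marked spot of liver 5 would read -0.86. All 4 measured livers lay below the reference, with livers 1 and 2 well apart from livers 3 and 4. The mean was -1.43 ± 1.16 (SD, n = 4), or 2.69-fold lower, and with this spread limma gave an adjusted p of 0.0576, so it was not called. The liver signals were 333, 822, 3124, 2386 and 1742 in livers 1 to 5, against 2550, 3442, 3884, 4142 and 4500 for the reference. They spanned 9.38-fold in liver and 1.76-fold in the reference, again as raw signals not corrected for array brightness. The probe was called in 6 of 17 settings. These included keeping the marked spot (mean -1.33, adjusted p 0.0203), the authors' deposited log2 ratios (-1.36, adjusted p 0.0382) and leaving out liver 3 (-1.72, adjusted p 0.0410); the adjusted p over all settings ranged between 0.0203 and 0.143.

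In its ratio to the reference, Cyp7b1 varied between livers in another order. Its probe A_51_P461429 stood at 0.12 and 0.04 in livers 1 and 2, the livers with the lowest Cyp7a1 and Cyp8b1 ratios. It was at -0.94, -0.68 and -1.87 in livers 3, 4 and 5, so only liver 5 was low for both Cyp7a1 and Cyp7b1. The mean was -0.67 ± 0.81 (SD, n = 5) with an adjusted p from limma of 0.117, and it was not called. Without liver 5 the mean was -0.36 and the SD 0.53. Liver signals were 2261, 5261, 3694, 3734 and 1494 in livers 1 to 5, against 2075, 5300, 6040, 7465 and 7896 for the reference. Here the reference signal spanned 3.81-fold, about as much as the liver signal at 3.52-fold. The other bile acid probes spanned less in the reference, 1.29-fold (Nr1h4) to 2.38-fold (Cyp27a1). The Cyp7b1 reference signal rose from array 1 to array 5, as did the arrays' median reference signal (74.0, 106, 120, 130 and 149). The liver signal did not follow the ratios: liver 1 lay below livers 3 and 4 in signal but above them in ratio. How much of this order came from the reference channel was not tested. The Cyp7a1 log2 ratio, averaged over its measured probes, minus that of Cyp7b1 was -1.95 and -1.61 in livers 1 and 2. In livers 3, 4 and 5 the same difference was 1.01, 0.36 and 0.52, so as processed here the sign divides the livers into 2 and 3. The sign in liver 5 depends on the processing. In the authors' deposited table both Cyp7a1 probes lay below Cyp7b1 in liver 5 (-2.04 and -2.59 against -1.90). The difference between the first enzyme of the classical route and the oxysterol hydroxylase was singled out after its values were seen and was not tested.

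Cyp27a1, the side chain oxidase, had the smallest SD over livers as processed here. Its probe A_51_P112817 stood at -0.36, -0.15, -0.36, -0.07 and -0.20 in livers 1 to 5. It was the only one of the 6 bile acid probes with 5 values that lay below the reference in all 5 livers, against 18% of all such probes on the array. The mean was -0.23 ± 0.13 (SD, n = 5), with an adjusted p from limma of 0.0541. Liver signals lay between 858 and 1784, against 1090 to 2593 for the reference. The adjusted p ranged between 0.0219 and 0.155 over settings and passed 0.05 in 5 of 17. With median centring in place of loess the mean was -0.38 (adjusted p 0.0475) and the SD 0.19.

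**Figure D1:**
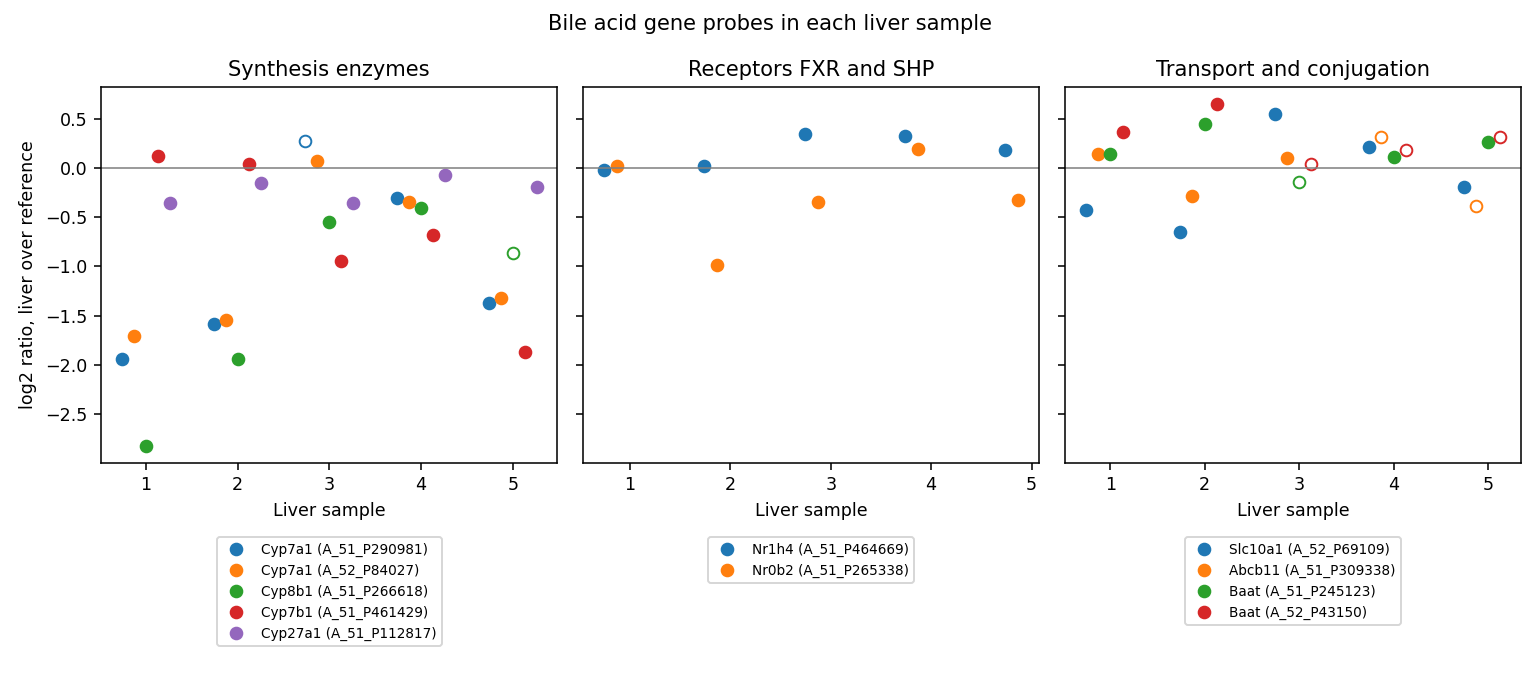
Log2 ratio of liver over reference (y axis) of each bile acid probe in livers 1 to 5 (x axis), for synthesis enzymes, receptors, and transport and conjugation. Filled circles are the values used, open circles are spots marked as non-uniform and left out, and probes are shifted sideways for clarity. Both Cyp7a1 probes and Cyp8b1 are low in livers 1 and 2, where Cyp7b1 lies at 0.12 and 0.04.

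Neither receptor was called. Nr1h4, the bile acid receptor FXR, stood at -0.02, 0.02, 0.35, 0.33 and 0.18 in livers 1 to 5 with probe A_51_P464669. Its mean was 0.17 ± 0.17 (SD, n = 5), with an adjusted p from limma of 0.146, and with median centring it was 0.022 (adjusted p 0.931). In all, 4 of the 5 livers lay above the reference, by at most 0.35. Liver signals lay between 1398 and 2799, against 1544 to 1989 for the reference.

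Nr0b2, the repressor SHP, stood at 0.02, -0.98, -0.34, 0.19 and -0.32 in livers 1 to 5 with probe A_51_P265338. Liver 2 was the lowest, and livers 1 and 4 were at or above the reference. The mean was -0.29 ± 0.45 (SD, n = 5), with an adjusted p from limma of 0.182. Without liver 2 the mean was -0.11 and the SD 0.26. Liver signals were 487, 274, 595, 877 and 509, against 481 to 938 for the reference. Livers 1 and 2, both low for Cyp7a1 and Cyp8b1, thus lay far apart in Nr0b2.

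Among the transporters, Slc10a1, which imports conjugated bile acids from blood, had the same lowest pair of livers as Cyp8b1. Its probe A_52_P69109 stood at -0.43, -0.65, 0.55, 0.22 and -0.19 in livers 1 to 5. Livers 1, 2 and 5 lay below the reference and livers 3 and 4 above it, so the mean of -0.10 ± 0.49 (SD, n = 5) was close to 0 (adjusted p from limma 0.674). Liver signals were 1338, 1528, 5245, 3661 and 2404, against 1812, 2413, 3049, 4062 and 3918 for the reference. The mean lay between -0.26 (without liver 3) and 0.039 (without liver 2) when a liver was left out, and was -0.26 with median centring.

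Neither the bile salt exporter Abcb11 nor the conjugating enzyme Baat was called. The Abcb11 probe A_51_P309338 stood at 0.14, -0.28 and 0.10 in livers 1 to 3. The marked spots of livers 4 and 5 would read 0.32 and -0.39. Its mean was -0.01 ± 0.24 (SD, n = 3; adjusted p from limma 0.942), and it turned to 0.0054 with scale normalization between arrays. Liver signals lay between 3056 and 6592, against 3644 to 5802 for the reference.

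Baat was above the reference in every liver whose spot was used. Probe A_51_P245123 stood at 0.15, 0.45, 0.11 and 0.27 in livers 1, 2, 4 and 5, and the marked spot of liver 3 would read -0.14. The mean was 0.25 ± 0.15 (SD, n = 4), with an adjusted p from limma of 0.0689. It was 0.042 with median centring (adjusted p 0.874), 0.15 with the marked spot kept and 0.16 in the authors' deposited table. The second probe, A_52_P43150, kept values in livers 1 and 2 only, at 0.37 and 0.65, and was not tested. In these livers it read 0.22 and 0.20 above the first probe. With its 3 marked spots kept, at 0.04, 0.19 and 0.31 in livers 3 to 5, its mean was 0.30 with an adjusted p of 0.0369, short of 2-fold.

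**Figure D2:**
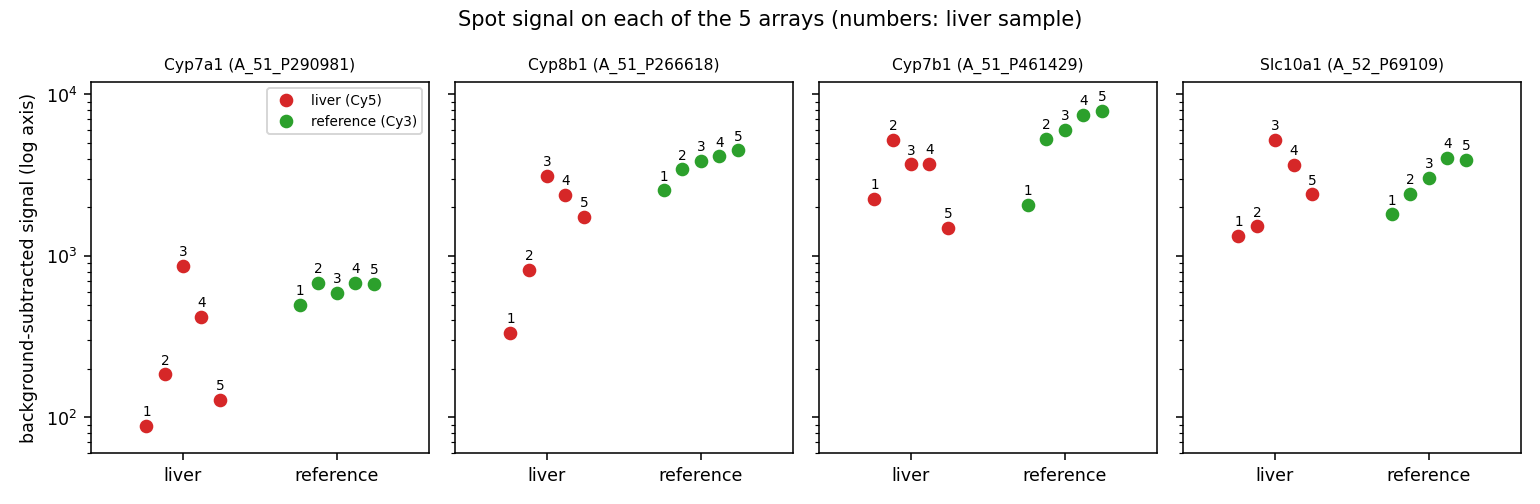
Background-subtracted spot signal in scanner units (log y axis) of 4 probes in the liver channel (left, red) and the reference channel (right, green) of each array; numbers give the liver. For Cyp7a1 and Cyp8b1 the liver signals span 9.84-fold and 9.38-fold while the reference signals span 1.37-fold and 1.76-fold. Signals are not corrected for array brightness, and marked spots are included.

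The spread between livers was the other measured quantity. The median SD over livers was 0.47 for the tested bile acid probes, while it was 0.17 for all tested probes. Cyp8b1 had a larger SD than 99.9% of tested probes, Cyp7b1 than 99.4%, the Cyp7a1 probes than 98.9% and 99.3%, Slc10a1 than 96.1% and Nr0b2 than 95.1%. At the other end, Cyp27a1 exceeded 27.1%, Baat 39.6% and Nr1h4 47.8% of tested probes. The 1000 probes nearest in brightness had a median SD of 0.19 around Cyp8b1 and 0.18 around Cyp7b1. An F test set each variance against the variance limma assigns to a probe of that brightness, for the 24009 probes with 5 values whose channels were both well above background throughout, among them 5 bile acid probes. None of the 24009 passed an adjusted p of 0.05 (0%), and 5.19% had an unadjusted p below 0.05. Of the 5 bile acid probes, 2 had an unadjusted p below 0.05: Cyp7b1 at 0.00341 (adjusted p 0.748 by this limma-based F test) and Slc10a1 at 0.0335 (adjusted p 0.918). With median centring in place of loess, 99 probes passed, including Cyp7b1 with an SD of 1.00 and an adjusted p of 0.0417. Cyp7a1 and Cyp8b1 were outside this test because of a marked spot or a dim one.

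**Figure D3:**
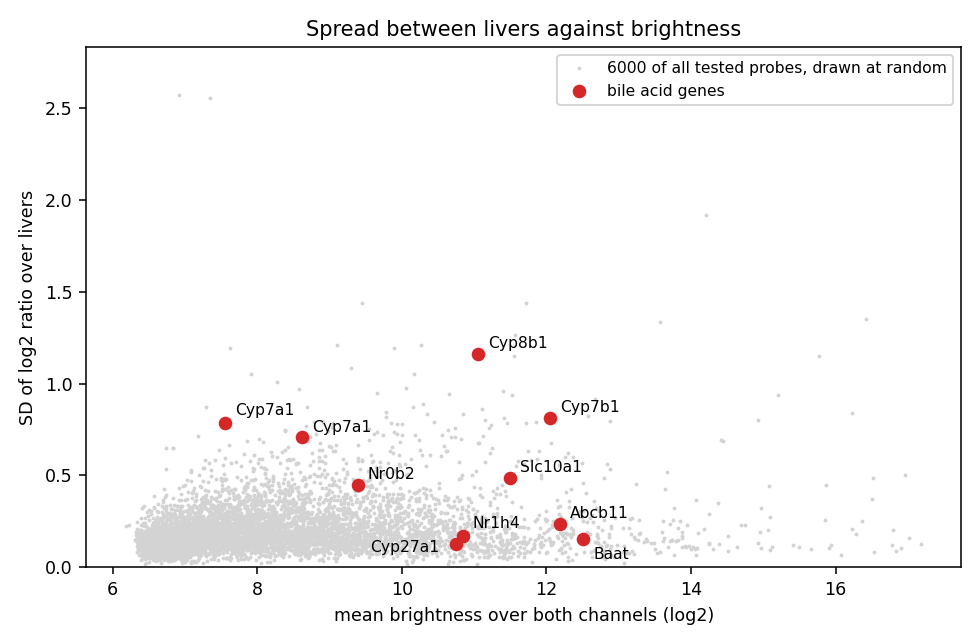
SD of the log2 ratio over livers (y axis) against mean log2 brightness over both channels (x axis), for the tested bile acid probes (red) and a random draw of all tested probes (grey). Cyp8b1, Cyp7b1 and both Cyp7a1 probes, with SDs of 1.16, 0.81, 0.71 and 0.79, lie above most probes of their brightness, and Cyp27a1, Nr1h4 and Baat lie among them.

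Other enzymes of bile acid synthesis and side chain shortening were measured with 12 tested probes for 11 of 14 listed genes. Called lower was 1 probe, against 0.32% of all tested probes, and 0 were called higher, against 1.2%. Without the minimum ratio, 3 of 12 were higher, against 16.2% of all tested probes, and 4 lower, against 11.5%, at an adjusted p below 0.05. The median of the means was -0.08. The called gene was Akr1c14, a hydroxysteroid dehydrogenase, at -0.93, -2.09 and -1.40 in livers 1, 2 and 5 (mean -1.47 ± 0.58, SD, n = 3; adjusted p from limma 0.00511). Its spots in livers 3 and 4, the livers with the highest Cyp7a1, were marked and left out. Cyp2c70, which makes the muricholic acids of mice, had both the highest mean and the largest SD of the list. It stood at 1.35, 1.44, -0.21, 0.55 and 0.58 in livers 1 to 5 (mean 0.74 ± 0.67, SD, n = 5; adjusted p 0.0504). Its highest livers, 1 and 2, were the lowest for Cyp8b1.

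Other bile and basolateral transporters were measured with 19 probes for 11 of 12 listed genes. Of these, 1 probe was called lower, against 0.32% of all tested probes, and 0 higher, against 1.2%. Without the minimum ratio, 8 of 19 were lower at an adjusted p below 0.05, against 11.5% of all tested probes, and 1 higher, against 16.2%. The median of the means was -0.29. The called probe was one of 2 for Abcg8, which with Abcg5 exports cholesterol into bile. It stood at -1.29, -2.09, -0.14, -0.60 and -1.32 in livers 1 to 5 (mean -1.09 ± 0.75, SD, n = 5; adjusted p from limma 0.0197). Like Cyp7a1, it was lower in livers 1, 2 and 5 than in livers 3 and 4. The second Abcg8 probe had a smaller mean of -0.60 (adjusted p 0.00753). The highest mean was that of Slc51a, a subunit of the basolateral exporter OST, at 0.25 ± 0.12 (SD, n = 5; adjusted p 0.0256). Slc10a2, the sodium-dependent bile acid importer of bile duct cells and ileum, had the largest SD, at 1.05 (n = 3) and 1.02 (n = 5) with its 2 probes. The second of these stood at 0.49, 0.44, -1.73, -0.35 and 0.81, so it was low in liver 3, where Slc10a1 was highest.

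Regulators of bile acid synthesis were measured with 17 tested probes for 14 genes. Of these, 0 were called lower, against 0.32% of all tested probes, and 0 higher, against 1.2%. Without the minimum ratio, 1 of 17 was higher, against 16.2% of all tested probes, and 4 lower, against 11.5%, at an adjusted p below 0.05. The median was -0.09. The highest mean was that of Fgfr4, the hepatic receptor for Fgf15, at 0.32 ± 0.15 (SD, n = 5; adjusted p from limma 0.0196). The lowest was that of Ppargc1a, a coactivator of nuclear receptors, at -0.54 ± 0.07 (SD, n = 5; adjusted p 0.00148). The largest SD was that of Nr1i3, the receptor CAR, at -0.67, 0.54 and 0.89 in livers 2, 3 and 4 (SD 0.82, adjusted p 0.580).

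**Figure D4:**
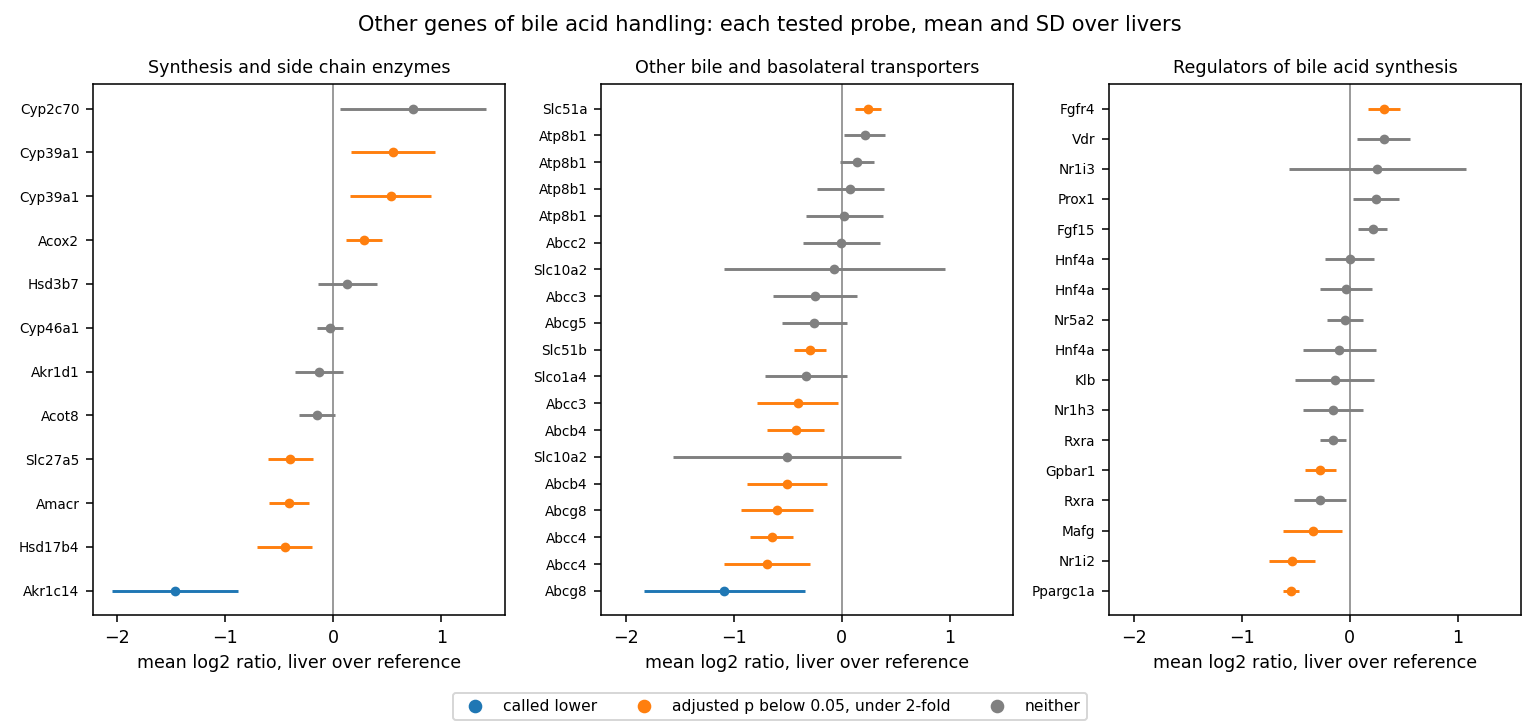
Mean log2 ratio of liver over reference (x axis, circles) with the SD over livers (bars) for each tested probe of 3 lists of other bile acid genes, 1 row a probe. Blue marks the probes called lower (Akr1c14 and one Abcg8 probe), orange an adjusted p below 0.05 under 2-fold, and grey neither.

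Of the named probes with both channels well above background throughout, the 3 nearest to Cyp7b1 in their pattern over the 5 livers were those of H2ap, Ccdc157 and Spn. Their root mean square difference from Cyp7b1, after centring each on its mean, was 0.34, 0.35 and 0.36 (log2), while the median over 16514 probes was 0.75. Cyp7b1 was used because it had the largest SD among the bile acid probes with 5 values. The 3 probes were picked for the smallest difference, so their closeness and their shared pattern follow from the choice. Like Cyp7b1, all 3 were higher in livers 1 and 2 than in livers 3, 4 and 5. Spn, which encodes the leukocyte sialoglycoprotein CD43, stood at 0.92, 1.51, -0.25, 0.23 and -0.31 in livers 1 to 5.

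Markers of liver cells and of processes that alter bile acid genes were set beside these patterns. All 7 measured hepatocyte markers were well above background on every array. Called higher in liver were 2 of them, Alb and Ahsg, against 1.2% of all tested probes. Without the minimum ratio, 5 of 7 were higher at an adjusted p below 0.05, against 16.2% of all tested probes, and 0 lower, against 11.5%. Tat, an amino acid catabolic enzyme, was the one with a mean below 0 and had the largest SD of the list, at 0.84, -0.95, -1.17 and -0.97 in livers 2 to 5 (mean -0.56 ± 0.94, SD, n = 4; adjusted p from limma 0.272). Their summed signal was 626263 to 702698 in liver, against 282962 to 418751 in the reference. The mean log2 ratio of the list was 0.90, 0.74, 0.32, 0.62 and 0.77 in livers 1 to 5, lowest in liver 3, where Cyp7a1 and Slc10a1 were highest. Each liver was averaged over the probes with a value there, and Tat, low in livers 3 to 5, had none in liver 1. Of 10 tested probes for 7 bile duct markers, 0 were called. Without the minimum ratio, 2 of them were lower at an adjusted p below 0.05, against 11.5% of all tested probes, and 0 higher, against 16.2%. The summed signal of the bile duct list was 9892 to 16801 in liver, against 8888 to 15521 in the reference. Of the probes for Kupffer cell, sinusoidal, stellate cell, blood and ileal enterocyte markers, 0 were called higher and 1, for the stellate cell marker Col1a1, was called lower. The shares of all tested probes were 1.2% called higher and 0.32% called lower. At an adjusted p below 0.05 with no minimum ratio, which 11.5% of all tested probes met in the lower direction and 16.2% in the higher, 5 of 6 Kupffer cell, 4 of 8 sinusoidal, 3 of 10 stellate cell, 1 of 6 blood and 2 of 9 ileal probes were lower. In the higher direction it was met by 2 blood probes and by 0 of the other 4 lists. Acute phase genes, the plasma protein genes that inflammation induces, were called higher for 5 of 11 probes, against 1.2% of all tested probes. The 5 were those of Saa1, Hp, Itih3, Apcs and Fgb. The list ran between Lcn2 at 0.92 ± 1.35 and one Saa1 probe at 1.85 ± 1.56 (mean ± SD, n = 5 each); this Saa1 probe also had the largest SD. The mean log2 ratio of that list was 1.96, 2.32, -0.49, 1.57 and 1.13 in livers 1 to 5. It was highest in livers 1 and 2, where Cyp8b1 and Slc10a1 were lowest, and lowest in liver 3. In liver 4, however, it was 1.57 while Cyp7a1 stood at -0.30 and -0.35 with its 2 probes (-0.63 and -0.65 as deposited). Itih3 had no value in livers 3 and 5, so the acute phase means of these livers are without it. Of 20 probes of circadian clock genes, 1 was called lower, against 0.32% of all tested probes, and 0 higher, against 1.2%. It was that of Dbp, a clock-driven transcription factor that binds the Cyp7a1 promoter in rat, at -0.77, -2.29, -0.68, -0.01 and -2.10 (mean -1.17 ± 0.98, SD, n = 5; adjusted p from limma 0.0449). The highest mean of the clock list was that of one Nr1d1 probe, at 0.28 ± 0.32 (SD, n = 5). Without the minimum ratio, 3 of the 20 clock probes were lower at an adjusted p below 0.05, against 11.5% of all tested probes. In the higher direction it was 0, against 16.2%. Dbp was lowest in livers 2 and 5, both low for Cyp7a1, but stood at -0.77 in liver 1 and -0.68 in liver 3, which differed most in Cyp7a1. The median raw liver signal of an array was 77.4, 124, 176, 124 and 110 in livers 1 to 5, lowest in liver 1 and highest in liver 3. The part of these markers and of array brightness in the bile acid ratios was not tested.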

How the data were processed

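The scanner files hold spot intensity values on a linear scale, deposited by the authors; per the file headers they were made with Agilent Feature Extraction 11.5.1.1, with probe annotation of build mm8. The table of log2 ratios that the authors deposited matched Agilent's processed intensities, as a ratio, to 0.001 for 100% of probes with 1 spot, so its direction is liver over reference, and its column medians were -0.03, -0.07, -0.08, -0.10 and -0.03. Per the labels' protocols, RNA was extracted with Trizol and labelled by indirect cDNA labelling.

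Here, median spot intensities were corrected with normexp (offset 50) against the median local background, since no mean spot signal was in the files, and normalized by loess within each array in limma 3.58.1 (R 4.3.3), with control and marked spots at weight 0. Spots of a probe were averaged. For the 158 probes with 10 spots, the median SD was 0.0903 between spots and 0.177 between livers. Pairs of arrays correlated at 0.42 to 0.78 over probes. Each ratio was tested against 0 with limma (trend and robust prior, two-sided, Benjamini-Hochberg). The F test used a prior of 4.73 degrees of freedom. Both tests were tested on simulated data. Genes were named by RefSeq identifier in a table of assembly GRCm38.p6.

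The members and lists were chosen with earlier results of these data known. The text names every member probe and, of each of the 5 lists of other pathway, acute phase and clock genes, the called genes, the highest and lowest mean and the largest SD, with 3 genes nearest in pattern to the member probe of largest SD over 5 values. Alternatives were median centring, scale normalization, processed and deposited ratios, marked spots kept, other filters, prior and offset, probes combined by gene, and each liver left out. Other diet groups were not analysed here.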

Additional observations from a re-analysis of the deposited data

How the results depend on the processing

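Of the log2 ratios of bile acid probes recomputed under the alternatives, 143 kept their direction and side of the threshold, 9 passed it that had not, 2 no longer passed it and 2 changed sign; of the SDs, 64 kept their side and 1 passed. Abcb11 changed sign with scale normalization (0.0054) and Slc10a1 without liver 2, over a range of -0.26 to 0.039 with each liver left out. The number of bile acid probes called lower, 1 as reported, was 2 with scale normalization, the authors' deposited ratios, the filter on both channels, or no trend and robust prior, and 1 to 3 when each liver in turn was left out, with 3 without liver 3 and 2 without liver 4. No bile acid probe was called higher in any setting. Over all tested probes, 102 were called lower and 382 higher. These counts were 323 and 1159 with processed signals, 322 and 1166 with the deposited ratios, 62 and 129 with the brightest probe of each gene, and 63 and 85 with the probes of a gene averaged, where fewer features were tested (14918). With a liver left out they were 82 to 118 and 306 to 442. The spread test passed 99 probes with median centring, 1 of them a bile acid probe, and 12 with no filter on dim probes, against 0 as reported and with each liver left out. The cause of these changes was not tested. Slide as a block was not run, since each slide held 1 array. No paired analysis was possible because all samples form 1 group. Dim probes limit precision: the second Cyp7a1 probe was not well above background in 2 livers.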
